A study of Homo sapiens with 12 samples.

Results

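The DNA replication genes described here are 40 genes of origin licensing, helicase activation, DNA synthesis and nucleotide supply, taken by name from 60676 gene rows of a count table of human A549 cells. All 40 symbols matched 1 row each, and all 40 had enough counts to test, among 16192 genes tested. A549 is an established line of lung adenocarcinoma cells, and the question put to it was what LETS1, a long noncoding RNA, does to its transcriptome with and without TGF-β. RNA of 12 libraries was sequenced, 3 in each of 4 groups. Cells of 2 groups carried an empty lentiviral vector (Co.vec, pCDH-EF1a-PURO) and cells of the other two carried a lentiviral construct expressing LETS1, and within each pair 1 group was given ligand buffer and 1 was given TGF-β at 5 ng/mL, in both cases for 4 h. All 4 groups had thus been transduced and kept in puromycin, and the control for LETS1 was the empty vector and not an unrelated RNA. The labels name the replicates as biological but do not say whether they were separate transductions. The p-values thus set each difference against the spread between these replicate libraries. If each construct had a single transduction, the p-values do not cover the spread between transductions. No row carried the symbol LETS1, so its level in the libraries labelled LETS1 was not checked.

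A cell copies its DNA once per cycle in ordered steps. In G1 the origin recognition complex, CDC6 and CDT1 load the MCM helicase onto origins, and at the start of S phase CDC45 and the GINS complex join it to form the working helicase. Polymerase alpha with primase then starts each strand, RFC loads the PCNA clamp for polymerases delta and epsilon, and FEN1 and LIG1 join the lagging strand pieces. Many of these genes are transcribed late in G1 by E2F factors, and TGF-β, which signals through SMAD proteins, is known to hold epithelial cells in G1.

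Promoters were searched for E2F motifs because E2F factors drive many replication genes. Windows of 300 bases, 250 before and 50 after the start, came from RefSeq (GRCh38.p14) and were found for 34 of the 40 genes. GINS4, MCM4, MCM5, POLD3, RPA2 and RPA3 had none. The E2F letters searched were TTTCCCGC, TTTGGCGC, TTTCGCGC and TTTGCCGC on both strands, with overlapping matches each counted. They occurred in 18 of 34 replication promoters (52.9%), in 5.20% of 11624 promoters of tested genes and in 3.31% of all 35114 promoters of this length. The windows below belong to the genes with a window that ranked first for a difference with LETS1 (MCM7, CDT1, RRM2 and MCM10). GINS3, which alone rose with TGF-β, and MCM6, with the most matches, were added after their values were seen. Each is printed 5′ to 3′ along the gene's strand, with E2F matches in capitals.
MCM7, chr7:100101348-100101647, minus strand: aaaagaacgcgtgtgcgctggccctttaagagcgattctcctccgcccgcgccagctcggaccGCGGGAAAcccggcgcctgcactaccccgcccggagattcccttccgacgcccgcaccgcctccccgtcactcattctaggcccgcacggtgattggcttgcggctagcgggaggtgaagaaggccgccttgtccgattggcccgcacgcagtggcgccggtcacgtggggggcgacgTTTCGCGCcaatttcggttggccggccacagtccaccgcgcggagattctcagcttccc
CDT1, chr16:88803539-88803838, plus strand: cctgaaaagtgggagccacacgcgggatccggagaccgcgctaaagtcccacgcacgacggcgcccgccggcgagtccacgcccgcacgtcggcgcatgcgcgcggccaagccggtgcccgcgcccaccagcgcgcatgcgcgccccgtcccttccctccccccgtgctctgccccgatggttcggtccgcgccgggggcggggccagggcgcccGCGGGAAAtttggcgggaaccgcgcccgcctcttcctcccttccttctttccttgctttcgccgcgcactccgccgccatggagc
RRM2, chr2:10122489-10122788, plus strand: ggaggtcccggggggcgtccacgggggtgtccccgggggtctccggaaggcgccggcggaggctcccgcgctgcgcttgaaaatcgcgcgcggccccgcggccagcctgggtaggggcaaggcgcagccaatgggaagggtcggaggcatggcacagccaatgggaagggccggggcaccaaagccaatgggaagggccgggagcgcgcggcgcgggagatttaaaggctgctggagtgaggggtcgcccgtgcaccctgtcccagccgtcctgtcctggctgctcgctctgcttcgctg
MCM10, chr10:13161308-13161607, plus strand: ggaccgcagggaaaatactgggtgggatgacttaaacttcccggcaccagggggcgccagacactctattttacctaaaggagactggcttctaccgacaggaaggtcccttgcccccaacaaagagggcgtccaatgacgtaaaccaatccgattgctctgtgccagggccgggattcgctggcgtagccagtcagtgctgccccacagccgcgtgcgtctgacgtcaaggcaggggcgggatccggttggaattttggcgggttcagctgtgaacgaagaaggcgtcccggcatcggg
GINS3, chr16:58392221-58392520, plus strand: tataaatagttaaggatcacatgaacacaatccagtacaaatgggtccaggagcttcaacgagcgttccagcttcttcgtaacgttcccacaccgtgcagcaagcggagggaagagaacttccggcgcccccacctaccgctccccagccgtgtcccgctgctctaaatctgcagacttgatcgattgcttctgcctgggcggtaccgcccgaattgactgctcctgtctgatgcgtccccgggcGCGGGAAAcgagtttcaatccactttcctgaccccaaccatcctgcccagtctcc
MCM6, chr2:135876394-135876693, minus strand: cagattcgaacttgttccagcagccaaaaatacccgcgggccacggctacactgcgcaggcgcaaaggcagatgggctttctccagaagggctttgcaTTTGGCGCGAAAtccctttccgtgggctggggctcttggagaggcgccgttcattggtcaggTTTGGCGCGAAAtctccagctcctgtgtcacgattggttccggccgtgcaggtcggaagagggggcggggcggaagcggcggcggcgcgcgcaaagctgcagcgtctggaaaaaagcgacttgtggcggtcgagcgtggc

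In MCM7 the matches began 187 and 9 bases before the start, in CDT1 35 and in GINS3 5 bases before it. The 4 matches of MCM6 formed 2 overlapping pairs of opposite strand, beginning 152 and 148, and 90 and 86, bases before the start. RRM2 and MCM10 had no match, which says only that these letters are not in those windows. CCAAT on either strand, the letters bound by NF-Y, occurred in 21 of 34 replication promoters (61.8%) and in 36.2% of tested genes. The CHR letters TTTGAA and TTCGAA, known from promoters of mitosis genes, occurred in 2 of 34 (5.88%), against 24 of 30 mitosis genes (80%) and 11.3% of tested genes. An E2F match was present in 12 of 26 members lower with TGF-β in Co.vec cells and in 6 of 8 that were not.

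**Figure D1:**
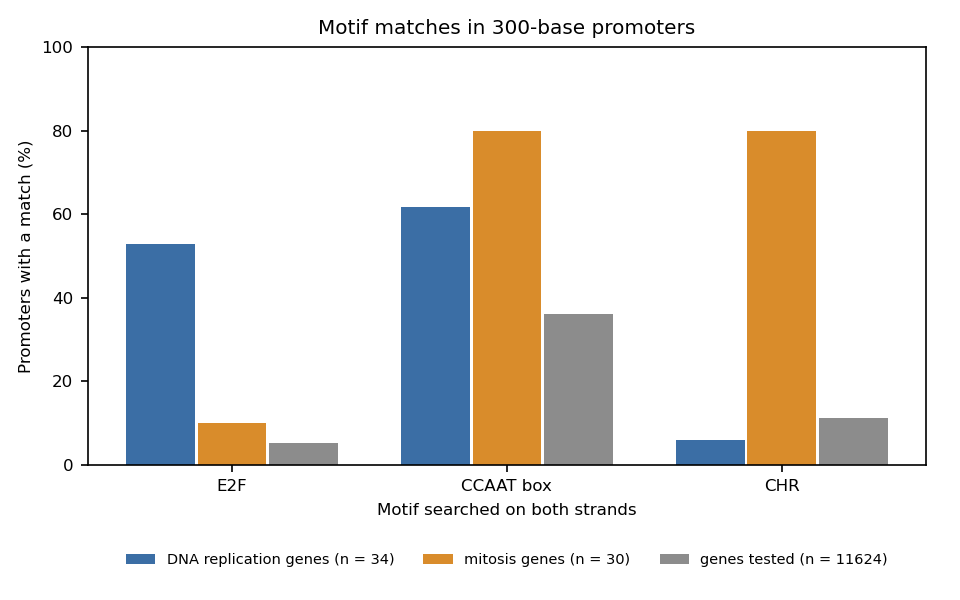
Share of 300-base promoters holding each motif on either strand (y axis, percent), for 34 DNA replication genes, 30 mitosis genes and 11624 tested genes, as bars from 0. E2F letters were found in 52.9%, 10% and 5.20% of these sets, and CHR letters in 5.88%, 80% and 11.3%.

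After 4 h of TGF-β most replication genes stood lower in cells with either vector. In Co.vec cells 31 of 40 fell (77.5%), 1 rose and 8 did not pass the test. Among all 16192 genes tested 39.7% were called in that comparison, 18.6% lower and 21.1% higher. In LETS1 cells 29 fell (72.5%), 1 rose and 10 did not pass, against 38.7% called, 19.1% lower and 19.7% higher, among all genes. All 3 TGF-β libraries were below all 3 buffer libraries in 30 members of Co.vec and 33 of LETS1 cells, where 22.9% and 24.9% of all genes were, and above them in 1 and 2 members, where 24.4% and 24% of all genes were. The median log2 fold change of the members was -0.25 in Co.vec cells and -0.22 in LETS1 cells, where that of all genes tested was -0.02 in both. The falls included the licensing factor CDT1, to 65.0% and 68.5% of its buffer level, and the primase subunit PRIM1, to 68.1% and 63.7%. The one gene that rose in both was GINS3, a subunit of the GINS complex. Of the 31 and 29 genes lower, 28 were shared, which is 90.3% of the first and 96.6% of the second. The share over all genes is not given here, so whether this overlap is unusual is not known. The groups behind these comparisons have no library in common, but both came from a single fit with a shared estimate of spread. Called in Co.vec cells only were RFC2, POLD3 and GINS4, and in LETS1 cells only GINS1. Neither comparison called MCM7, POLE, LIG1, RPA3, RRM1, RRM2 or TYMS. In bulk RNA, fewer cells in S phase and less RNA per cell cannot be told apart.

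**Figure D2:**
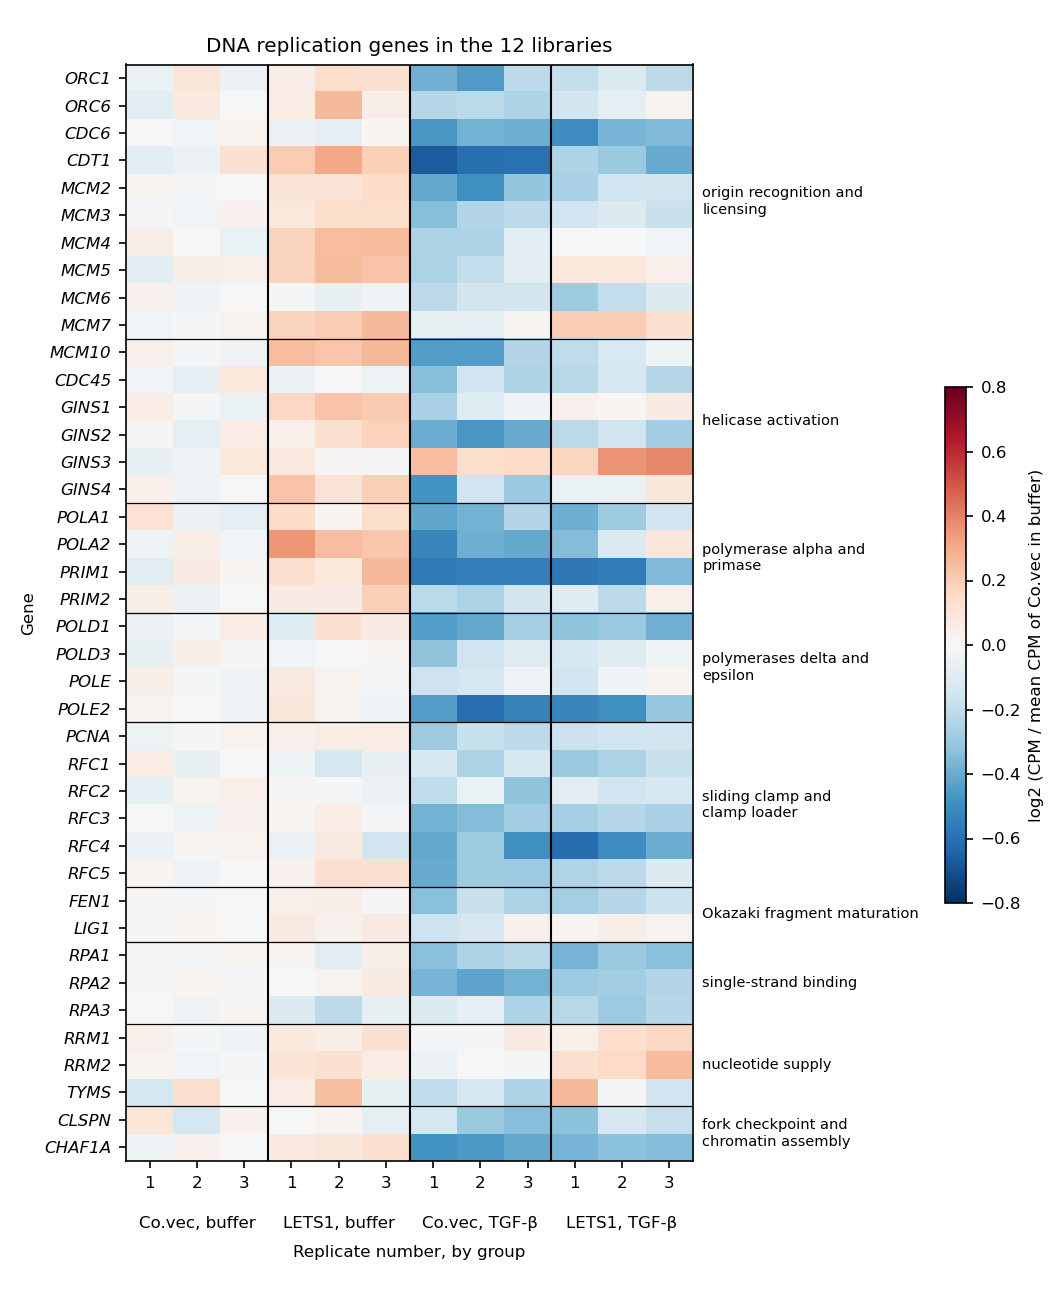
Level of each of the 40 genes in each of the 12 libraries, as log2 of its CPM (read count scaled to library size) over the mean of the Co.vec buffer group (colour, red higher and blue lower), in rows grouped by role. The member median lies from -0.33 to -0.25 in the Co.vec TGF-β libraries and from -0.22 to -0.15 in the LETS1 TGF-β libraries, against -0.01 to 0.00 in Co.vec buffer and 0.06 to 0.07 in LETS1 buffer.

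Together the 40 genes took 0.341% to 0.344% of gene counts in Co.vec buffer libraries and 0.279% to 0.297% in Co.vec TGF-β libraries. With LETS1 the shares were 0.363% to 0.366% in buffer and 0.304% to 0.312% with TGF-β. None of the 4 groups overlapped in this share.

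With LETS1, fewer replication genes differed, and those that passed the test were all higher. In buffer 6 of 40 were higher (15%) and 0 lower, against 15.1% called, 8.57% higher and 6.56% lower, among all genes tested. They were the helicase subunits MCM4, MCM5 and MCM7, the loader CDT1, MCM10 and GINS1. With TGF-β 10 of 40 were higher (25%) and 0 lower, against 14.1% called, 7.58% higher and 6.5% lower. These were the same 6 (100% of the first list, 60% of the second) with MCM2, GINS2, GINS4 and RRM2, the small subunit of ribonucleotide reductase. For this overlap, too, the share over all genes is not given. The member median was 0.09 in buffer and 0.11 with TGF-β on the log2 scale, and that of all genes 0.01 and 0.00. All 3 LETS1 libraries were above all 3 Co.vec libraries in 19 members at each ligand, where 16.8% of all genes were in buffer and 14.5% with TGF-β, and below them in 1 and 0 members, where 14.2% of all genes were in each. The LETS1 comparisons share libraries with those of TGF-β, so values of the 2 kinds are set side by side and no overlap between them is given. The number of called members was 5 to 7 in buffer and 7 to 13 with TGF-β when each library was left out in turn.

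**Figure D3:**
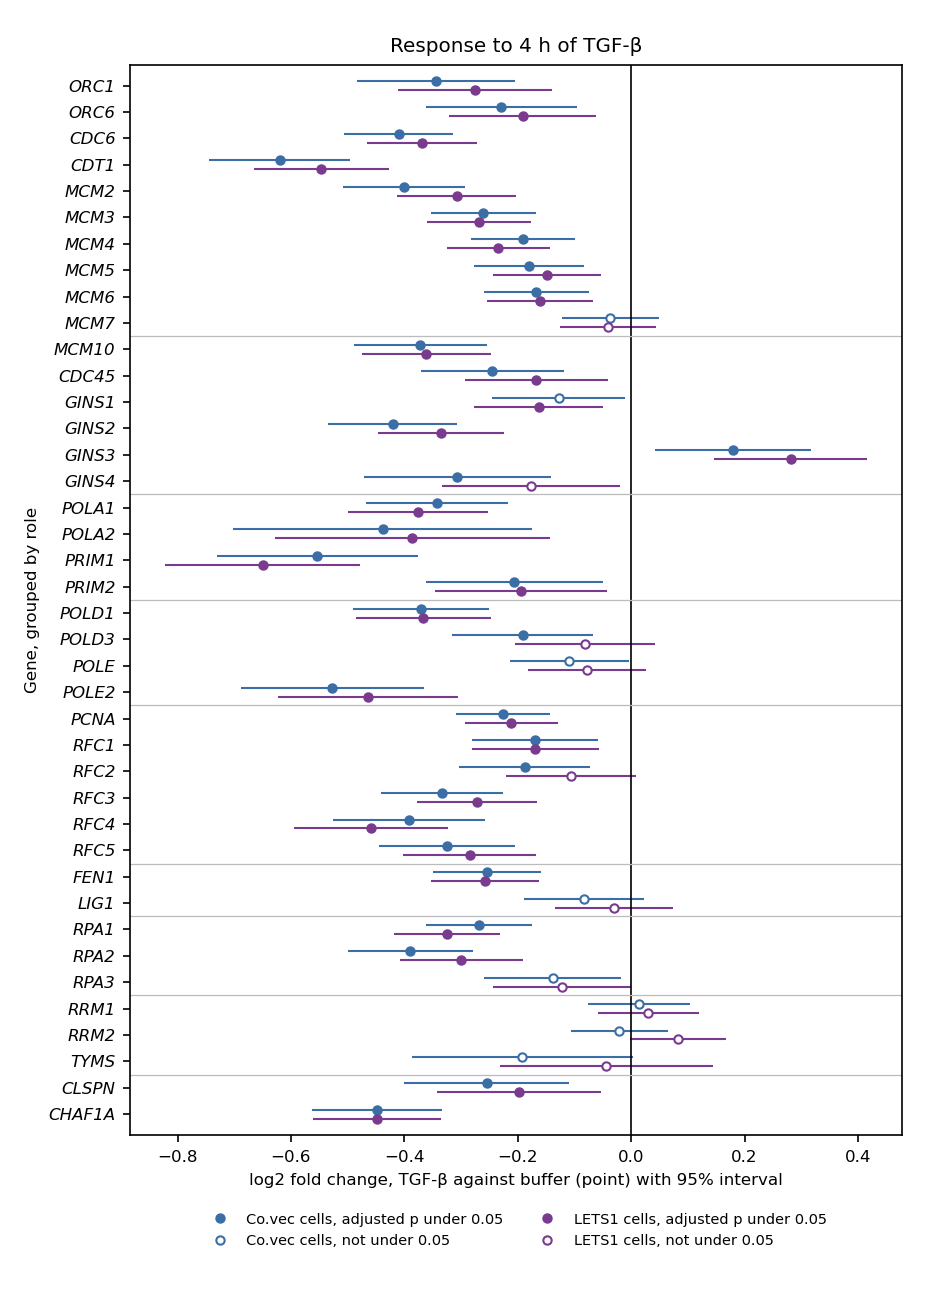
Log2 fold change of each gene after 4 h of TGF-β (x axis, points with 95% intervals), in Co.vec cells (blue) and LETS1 cells (purple), with filled points for an adjusted p under 0.05. Points of both lines lie left of 0 for every gene except GINS3, RRM1 and RRM2, and reach -0.62 for CDT1 in Co.vec cells and -0.65 for PRIM1 in LETS1 cells.

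The ligand response itself was not called different between the vectors for any member. The interaction, the response in LETS1 cells minus that in Co.vec cells, passed the edgeR test for 0 of 40 members, where 0.679% of all genes did. It had an unadjusted p under 0.05 in 0 members, DESeq2 called 0, and the lowest adjusted p was 0.741, for RRM2. The 95% intervals of all 40 lay within 0.5 of 0 on the log2 scale, from -0.344 for the lower bound of PRIM1 to 0.420 for the upper bound of TYMS. That bound is wider than the median response of the members in either line, so the intervals do not show that the responses were alike.

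**Figure D4:**
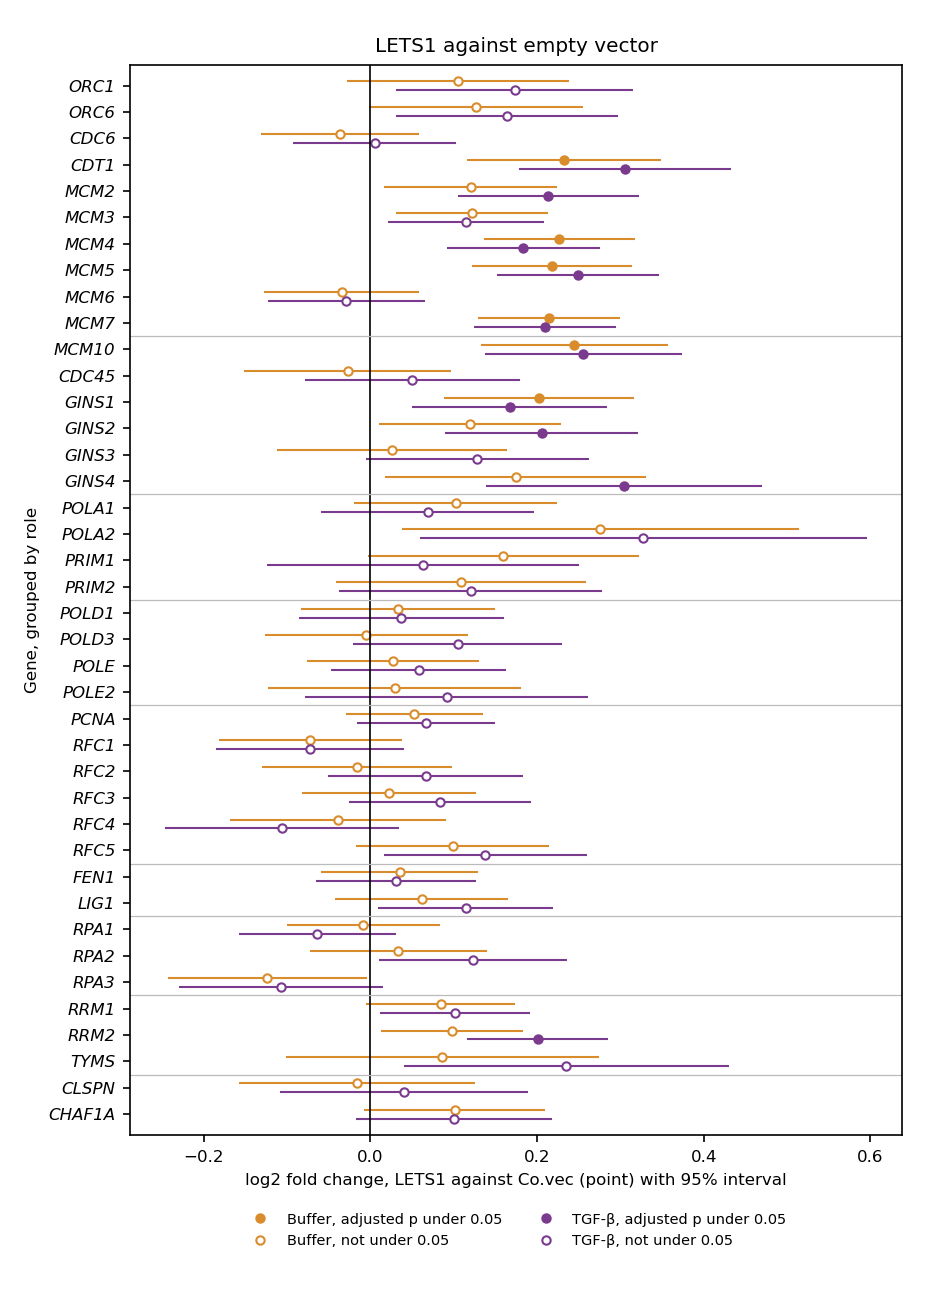
Log2 fold change of each gene with LETS1 against Co.vec (x axis, points with 95% intervals), in buffer (orange) and with TGF-β (purple), with filled points for an adjusted p under 0.05. Filled points are all right of 0 and belong to licensing, helicase activation and RRM2.

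Gene positions are those of GENCODE release 29 on GRCh38. Levels below are in CPM, read counts scaled to library sizes that were adjusted by the TMM method, in the order of replicates 1, 2 and 3, which has no meaning of its own. Log2 fold changes, their standard errors (SE) and Benjamini-Hochberg adjusted p-values come from edgeR's quasi-likelihood test on all 12 libraries. A gene is called where the adjusted p is under 0.05. A log2 fold change is written as log2 and its value. Where a pair of responses to TGF-β follow each other, the first is that of Co.vec and the second that of LETS1 cells, and where a pair of differences with LETS1 do, the first is in buffer and the second with TGF-β. In brackets after a library that was left out stands the adjusted p without it.

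Among the origin recognition and licensing genes, 9 of 10 fell with TGF-β in each cell line, all but MCM7. With LETS1, 4 of 10 were higher in buffer and 5 with TGF-β. CDT1 (chr16:88803213-88809258, plus strand), which brings the MCM helicase to origins, read 47.6, 49.0 and 55.0 CPM in Co.vec buffer and 31.9, 33.3 and 33.4 in Co.vec TGF-β libraries. In LETS1 cells it read 58.1, 62.3 and 57.7 in buffer and 42.6, 41.1 and 38.2 with TGF-β. Every TGF-β library was below every buffer library, and at each ligand every LETS1 library was above every Co.vec library. The response to TGF-β was log2 -0.62 (SE 0.061, adjusted p = 5.9e-11) in Co.vec and log2 -0.55 (SE 0.059, adjusted p = 5.23e-10) in LETS1 cells. The difference with LETS1 was log2 0.23 (SE 0.058, adjusted p = 0.00346) in buffer and log2 0.31 (SE 0.063, adjusted p = 0.000455) with TGF-β. CDC6, the ATPase that recruits CDT1 and the helicase, read 116, 114 and 118 CPM in Co.vec buffer and 84.1, 89.1 and 88.5 in Co.vec TGF-β libraries. In LETS1 cells the same gene read 112, 110.1 and 117 in buffer and 82.3, 89.5 and 90.8 with TGF-β. It fell in both lines without overlap, with log2 fold changes of -0.41 (SE 0.048, adjusted p = 3.17e-09) and -0.37 (SE 0.048, adjusted p = 3.54e-08), and the LETS1 and Co.vec libraries overlapped at each ligand. ORC1, the ATPase subunit of the origin recognition complex that comes and goes with the cycle, read 27.9, 30.9 and 28.0 CPM in Co.vec buffer and 22.2, 21.2 and 24.99 in Co.vec TGF-β libraries. LETS1 cells had 30.0, 31.8 and 31.5 in buffer and 25.4, 26.7 and 25.01 with TGF-β. It fell without overlap, with log2 fold changes of -0.34 (SE 0.069, adjusted p = 8.96e-05) and -0.28 (SE 0.067, adjusted p = 0.00100). With TGF-β its LETS1 libraries lay above its Co.vec libraries, at log2 0.17 (adjusted p = 0.0984), which passed only without Co.vec TGF-β replicate 3 (0.0216).

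Of the 6 subunits of the MCM helicase, the ring that unwinds DNA, 5 fell with TGF-β in each line, and 3 were higher with LETS1 in buffer and 4 with TGF-β. MCM2 read 69.9, 68.4 and 68.7 CPM in Co.vec buffer and 52.0, 49.1 and 55.8 in Co.vec TGF-β libraries. In LETS1 libraries MCM2 read 74.2, 74.2 and 76.8 in buffer and 57.7, 61.9 and 62.3 with TGF-β. It had the largest fall of the 6, log2 -0.40 (SE 0.053, adjusted p = 5.76e-08) and log2 -0.31 (SE 0.052, adjusted p = 6.07e-06), without overlap. With LETS1 its libraries were all higher at each ligand, but only the difference with TGF-β was called, log2 0.21 (adjusted p = 0.00432) against log2 0.12 (adjusted p = 0.116) in buffer. MCM3 read 128, 127 and 132 CPM in Co.vec buffer and 102, 109 and 112 in Co.vec TGF-β libraries. With LETS1, MCM3 read 137, 142 and 142 in buffer and 116, 119.5 and 114 with TGF-β. It fell, with log2 fold changes of -0.26 (SE 0.046, adjusted p = 1.16e-05) and -0.27 (SE 0.045, adjusted p = 6.42e-06) without overlap, and its differences with LETS1 of log2 0.12 (adjusted p = 0.0621) and log2 0.12 (adjusted p = 0.0938) were not called. MCM4 read 254, 244 and 236 CPM in Co.vec buffer and 205, 206 and 231 in Co.vec TGF-β libraries. In LETS1 cells MCM4 read 276, 290.4 and 292 in buffer and 245, 244 and 241 with TGF-β. It fell with the ligand, with log2 fold changes of -0.19 (adjusted p = 0.000751) and -0.23 (adjusted p = 4.76e-05), and was higher with LETS1 at log2 0.23 (SE 0.045, adjusted p = 0.000233) in buffer and log2 0.18 (SE 0.045, adjusted p = 0.00371) with TGF-β, all without overlap. MCM5 read 117, 129 and 128 CPM in Co.vec buffer and 104, 109 and 117 in Co.vec TGF-β libraries. The LETS1 libraries of MCM5 read 141, 148 and 146 in buffer and 132, 132 and 128 with TGF-β. It fell, with log2 fold changes of -0.18 (adjusted p = 0.00261) and -0.15 (adjusted p = 0.0109) and was higher with LETS1 at log2 0.22 (SE 0.047, adjusted p = 0.000753) and log2 0.25 (SE 0.048, adjusted p = 0.000188), again without overlap. MCM7 (chr7:100092728-100101940, minus strand) read 271, 274 and 281 CPM in Co.vec buffer and 265, 261 and 280.0 in Co.vec TGF-β libraries. Its LETS1 libraries read 312, 317 and 329 in buffer and 315, 316 and 301 with TGF-β. Here the ligand groups overlapped and no fall was called, at log2 -0.04 (SE 0.042, adjusted p = 0.524) and log2 -0.04 (SE 0.042, adjusted p = 0.468). With LETS1 every library was higher, at log2 0.21 (SE 0.042, adjusted p = 0.000207) and log2 0.21 (SE 0.042, adjusted p = 0.000338).

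MCM6 fell, with log2 fold changes of -0.17 (adjusted p = 0.00342) and -0.16 (adjusted p = 0.00474) and did not differ beyond the test with LETS1. ORC6, the smallest subunit of the origin recognition complex, fell, with log2 fold changes of -0.23 (adjusted p = 0.00474) and -0.19 (adjusted p = 0.0154). Several of these calls changed when a single library was left out. The fall of ORC6 was no longer called without Co.vec buffer replicate 2 (0.0571) in Co.vec cells, nor in LETS1 cells without LETS1 buffer replicate 2 (0.209), LETS1 TGF-β replicate 1 (0.110) or LETS1 TGF-β replicate 2 (0.0517), and without a filter on low counts (0.0603) or with DESeq2 (0.0611). Its value in LETS1 cells moved to log2 -0.11 without LETS1 buffer replicate 2. The fall of MCM5 was lost without Co.vec TGF-β replicate 1 (0.0501) in Co.vec and LETS1 buffer replicate 2 (0.0738) in LETS1 cells, there also without a filter on low counts (0.0727), and that of MCM6 in LETS1 cells without LETS1 TGF-β replicate 1 (0.0751). The difference of MCM2 with LETS1 and TGF-β was lost without Co.vec TGF-β replicate 2 (0.0585) and that of MCM4 without Co.vec TGF-β replicate 1 (0.0507). MCM3 was gained in buffer without LETS1 TGF-β replicate 3 (0.0490) and with TGF-β without Co.vec TGF-β replicate 3 (0.0495).

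**Figure D5:**
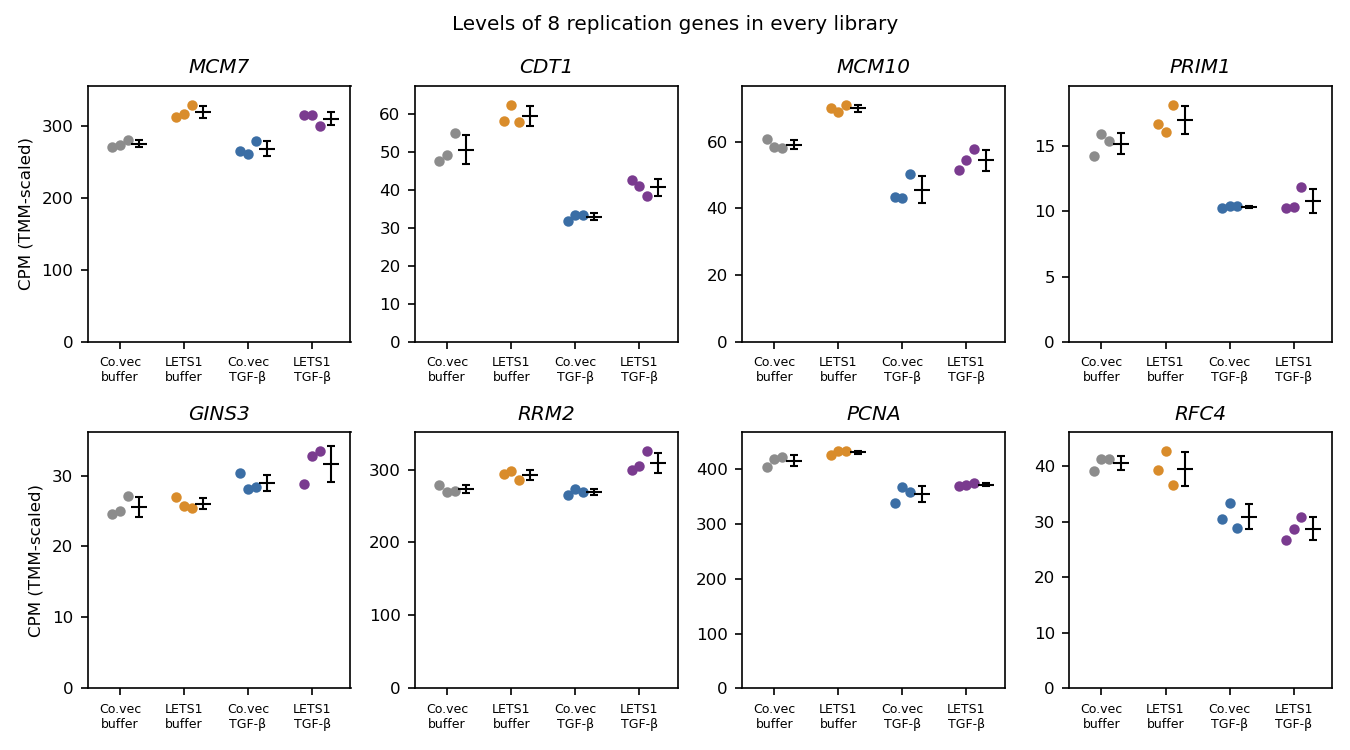
CPM (TMM-scaled, y axes from 0) of 8 replication genes in every library, 1 panel per gene, with the mean and SD of the 3 libraries of each group as a bar beside the points. CDT1, MCM10, PRIM1, PCNA and RFC4 lie lower in both TGF-β groups, GINS3 lies higher, and MCM7 and RRM2 lie higher with LETS1.

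Of the 6 helicase activation genes, 4 fell and 1 rose with TGF-β in each line, and 2 were higher with LETS1 in buffer and 4 with TGF-β. MCM10, which binds the helicase as it starts to unwind, read 60.6, 58.4 and 58.0 CPM in Co.vec buffer and 43.4, 43.2 and 50.2 in Co.vec TGF-β libraries. With LETS1 it read 70.1, 68.7 and 71.0 in buffer and 51.4, 54.3 and 57.6 with TGF-β. The fall was log2 -0.37 (SE 0.058, adjusted p = 1.45e-06) and log2 -0.36 (SE 0.056, adjusted p = 1.37e-06), and the difference with LETS1 was log2 0.24 (SE 0.055, adjusted p = 0.00128) and log2 0.26 (SE 0.058, adjusted p = 0.00160), with no overlap in any of the 4 comparisons. GINS2, a subunit of the GINS complex, read 55.9, 52.9 and 57.8 CPM in Co.vec buffer and 42.2, 40.3 and 41.9 in Co.vec TGF-β libraries. Its LETS1 libraries had 57.2, 60.7 and 63.0 in buffer and 47.9, 49.8 and 45.7 with TGF-β. It fell without overlap, with log2 fold changes of -0.42 (SE 0.056, adjusted p = 7.07e-08) and -0.33 (SE 0.055, adjusted p = 3.78e-06). Its difference with LETS1 was log2 0.21 (adjusted p = 0.0105) with TGF-β, which was called, and log2 0.12 (adjusted p = 0.144) in buffer, which was not and where the groups overlapped. The interaction of GINS2 was log2 0.09 (adjusted p = 0.890), so these differences were not shown to differ. The difference with TGF-β was lost without Co.vec TGF-β replicate 2 (0.0615) or LETS1 TGF-β replicate 2 (0.0850). GINS3 (chr16:58295080-58406144, plus strand) read 24.6, 25.03 and 27.1 CPM in Co.vec buffer and 30.3, 28.1 and 28.4 in Co.vec TGF-β libraries. In LETS1 cells GINS3 read 26.9, 25.7 and 25.4 in buffer and 28.8, 32.8 and 33.4 with TGF-β. All TGF-β libraries were above all buffer libraries of the same line, with a rise of log2 0.18 (SE 0.068, adjusted p = 0.0320) and log2 0.28 (SE 0.067, adjusted p = 0.000727). The rise in Co.vec cells was lost without Co.vec buffer replicate 1 (0.112), Co.vec buffer replicate 2 (0.0839) or Co.vec TGF-β replicate 1 (0.116) and with DESeq2 (0.0785), while that in LETS1 cells held in each of these settings. An antisense gene, AC009118.2, covers 10.9% of the exonic bases of GINS3. Whether reads there were separated by strand or left unassigned as ambiguous is not known, because the strand setting of the counting is not given.

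Some calls of GINS1, GINS4 and CDC45 changed when a single library was left out. GINS1, a GINS subunit like GINS4, was higher with LETS1 at log2 0.20 (adjusted p = 0.00979) in buffer and log2 0.17 (adjusted p = 0.0456) with TGF-β and fell with TGF-β in LETS1 cells, at log2 -0.16 (adjusted p = 0.0188). Its difference with LETS1 and TGF-β was lost without any 1 of 9 libraries (adjusted p from 0.0539 to 0.346), and without a filter on low counts (0.0652), with a replicate block (0.0594), with the 6 libraries fitted alone (0.0711) or with DESeq2 (0.0743). Its value moved to log2 0.10 without Co.vec TGF-β replicate 1. In buffer the difference was lost without Co.vec buffer replicate 3 (0.0563) or LETS1 buffer replicate 2 (0.0515). The ligand fall in LETS1 cells was lost without LETS1 buffer replicate 2 (0.0849), LETS1 buffer replicate 3 (0.0535), LETS1 TGF-β replicate 1 (0.0565) or LETS1 TGF-β replicate 2 (0.0722), or without a filter on low counts (0.1001) or with DESeq2 (0.0614), and one in Co.vec cells was gained without Co.vec TGF-β replicate 3 (0.0245). GINS4 fell in Co.vec cells, at log2 -0.31 (adjusted p = 0.00249), but not without Co.vec TGF-β replicate 1 (0.05004). It was higher with LETS1 and TGF-β at log2 0.30 (adjusted p = 0.00807), but not without Co.vec TGF-β replicate 1 (0.104) or LETS1 TGF-β replicate 3 (0.0570), and its value in LETS1 cells of log2 -0.18 (adjusted p = 0.0684) was called only without LETS1 TGF-β replicate 3 (0.0430). CDC45 fell, at log2 -0.24 (adjusted p = 0.00168) in Co.vec and at log2 -0.17 (adjusted p = 0.0305) in LETS1 cells, the latter lost without LETS1 buffer replicate 1 (0.0530), LETS1 buffer replicate 2 (0.121), LETS1 buffer replicate 3 (0.0533), LETS1 TGF-β replicate 1 (0.108) or LETS1 TGF-β replicate 3 (0.101) and without a filter on low counts (0.155) or with DESeq2 (0.106).

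All 4 genes of polymerase alpha and primase, the enzyme that lays the first stretch of every new strand, fell with TGF-β in both lines. With LETS1, 0 were called in either medium. In buffer every LETS1 library of POLA2, PRIM1 and PRIM2 was above every Co.vec library, and those of POLA1 overlapped. PRIM1 (chr12:56731596-56752373, minus strand), the catalytic subunit of primase, read 14.3, 15.9 and 15.4 CPM in Co.vec buffer and 10.3, 10.4 and 10.4 in Co.vec TGF-β libraries. With LETS1, PRIM1 read 16.7, 16.1 and 18.2 in buffer and 10.3, 10.3 and 11.9 with TGF-β. The TGF-β and buffer groups of each line did not overlap and the fall was log2 -0.55 (SE 0.087, adjusted p = 1.88e-06) and log2 -0.65 (SE 0.085, adjusted p = 4.59e-08). POLA1, the catalytic subunit of the polymerase, read 67.1, 60.0 and 58.9 CPM in Co.vec buffer and 46.4, 47.7 and 52.6 in Co.vec TGF-β libraries. In LETS1 cells POLA1 read 68.5, 62.8 and 68.4 in buffer and 47.4, 50.9 and 55.7 with TGF-β. It fell without overlap, with log2 fold changes of -0.34 (SE 0.062, adjusted p = 2.16e-05) and -0.38 (SE 0.061, adjusted p = 3.77e-06). POLA2, its regulatory subunit, fell, with log2 fold changes of -0.44 (adjusted p = 0.00645) and -0.39 (adjusted p = 0.00910) at a mean of 5.53 CPM in Co.vec buffer. With LETS1 it was not called, at log2 0.28 (adjusted p = 0.117) and log2 0.33 (adjusted p = 0.0972), though its groups did not overlap at either ligand. Its fall in LETS1 cells was lost without LETS1 TGF-β replicate 1 (0.0973) and with DESeq2 (0.0673), and a difference with LETS1 and TGF-β was gained without LETS1 TGF-β replicate 1 (0.0446). PRIM2, the large primase subunit, fell, with log2 fold changes of -0.21 (adjusted p = 0.0304) and -0.19 (adjusted p = 0.0367), the weakest falls of the 4. That in Co.vec cells was lost without Co.vec buffer replicate 1 (0.0970), Co.vec buffer replicate 2 (0.0508), Co.vec buffer replicate 3 (0.0689), Co.vec TGF-β replicate 1 (0.0881) or Co.vec TGF-β replicate 2 (0.119), and without a filter on low counts (0.0851) or with DESeq2 (0.0948). The fall of PRIM2 in LETS1 cells was lost without Co.vec buffer replicate 2 (0.0519), LETS1 buffer replicate 2 (0.0534), LETS1 buffer replicate 3 (0.176), LETS1 TGF-β replicate 1 (0.0977) or LETS1 TGF-β replicate 2 (0.224), and without a filter on low counts (0.156) or with DESeq2 (0.139).

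Of the 4 genes of polymerases delta and epsilon, which copy most of the genome, 3 fell in Co.vec and 2 in LETS1 cells. With LETS1, 0 were called. POLD1, the catalytic subunit of delta, read 56.4, 57.8 and 60.8 CPM in Co.vec buffer and 43.0, 43.9 and 48.5 in Co.vec TGF-β libraries. With LETS1, POLD1 read 54.5, 63.5 and 61.1 in buffer and 46.6, 47.6 and 44.8 with TGF-β. It fell without overlap, with log2 fold changes of -0.37 (SE 0.059, adjusted p = 2.52e-06) and -0.37 (SE 0.059, adjusted p = 2.7e-06). POLE2, the second subunit of epsilon, read 19.2, 18.9 and 18.5 CPM in Co.vec buffer and 13.9, 12.4 and 13.0 in Co.vec TGF-β libraries. Its levels in LETS1 cells were 20.1, 19.2 and 18.6 in buffer and 13.2, 13.4 and 15.3 with TGF-β. No library overlapped, and the fall was log2 -0.53 (SE 0.080, adjusted p = 8.56e-07) and log2 -0.46 (SE 0.078, adjusted p = 6.27e-06). POLE, the catalytic subunit of epsilon, had log2 -0.11 (adjusted p = 0.0922) and log2 -0.08 (adjusted p = 0.242) and was called in neither, though without Co.vec TGF-β replicate 3 (0.0327) it was called in Co.vec cells. POLD3, an accessory subunit of delta, fell in Co.vec cells, at log2 -0.19 (adjusted p = 0.0117), which was lost without Co.vec buffer replicate 2 (0.0837) or Co.vec TGF-β replicate 1 (0.168) and was log2 -0.12 without the latter, and had log2 -0.08 (adjusted p = 0.307) in LETS1 cells.

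Of the sliding clamp and its loader, 6 of 6 genes fell in Co.vec and 5 of 6 in LETS1 cells, and 0 were called with LETS1. Every LETS1 library of PCNA and RFC5 was above every Co.vec library at each ligand, and of RFC3 with TGF-β only. Those of RFC1, RFC2 and RFC4 overlapped at each ligand. PCNA (chr20:5114953-5126626, minus strand), the ring that holds polymerases on DNA, read 404, 418 and 423 CPM in Co.vec buffer and 339, 367 and 359 in Co.vec TGF-β libraries. In LETS1 cells PCNA read 427, 432 and 432 in buffer and 369, 371 and 375 with TGF-β. The fall, without overlap, was log2 -0.23 (SE 0.041, adjusted p = 1.98e-05) and log2 -0.21 (SE 0.041, adjusted p = 5.25e-05). RFC4 read 39.2, 41.2 and 41.3 CPM in Co.vec buffer and 30.6, 33.4 and 28.9 in Co.vec TGF-β libraries. With LETS1, RFC4 read 39.3, 42.7 and 36.6 in buffer and 26.7, 28.8 and 30.8 with TGF-β. This loader subunit had the largest fall of the 6, log2 -0.39 (SE 0.066, adjusted p = 6.43e-06) and log2 -0.46 (SE 0.067, adjusted p = 4.29e-07), without overlap. RFC3 read 56.5, 54.9 and 57.9 CPM in Co.vec buffer and 43.4, 44.3 and 46.6 in Co.vec TGF-β libraries. The LETS1 libraries of RFC3 had 57.3, 58.9 and 55.8 in buffer and 47.0, 48.2 and 47.2 with TGF-β. It fell, with log2 fold changes of -0.33 (SE 0.053, adjusted p = 2.1e-06) and -0.27 (SE 0.052, adjusted p = 5.12e-05) without overlap. RFC5 read 41.1, 39.7 and 40.4 CPM in Co.vec buffer and 30.6, 33.1 and 33.1 in Co.vec TGF-β libraries. For RFC5 the LETS1 levels were 41.4, 44.5 and 44.0 in buffer and 34.2, 35.0 and 37.4 with TGF-β. It too fell without overlap, with log2 fold changes of -0.32 (SE 0.059, adjusted p = 2.33e-05) and -0.29 (SE 0.058, adjusted p = 0.000113).

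RFC1, the large loader subunit, fell, with log2 fold changes of -0.17 (adjusted p = 0.0127) and -0.17 (adjusted p = 0.0133). Its call was lost in Co.vec cells without Co.vec buffer replicate 1 (0.0678) or Co.vec TGF-β replicate 2 (0.119) and in LETS1 cells without LETS1 buffer replicate 1 (0.0653) or LETS1 TGF-β replicate 1 (0.0826), or without a filter on low counts (0.0791). RFC2 fell in Co.vec cells, at log2 -0.19 (adjusted p = 0.00771), where its TGF-β and buffer libraries overlapped. In LETS1 cells it had log2 -0.11 (adjusted p = 0.143) and was not called, though every TGF-β library was below every buffer library. The call in Co.vec cells was lost without Co.vec buffer replicate 2 (0.0502) or Co.vec TGF-β replicate 3 (0.111), and the latter gave log2 -0.12.

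FEN1, the nuclease that trims lagging strand pieces, read 108, 106 and 107 CPM in Co.vec buffer and 85.1, 94.6 and 89.7 in Co.vec TGF-β libraries. With LETS1, FEN1 read 110.2, 111 and 108 in buffer and 88.7, 91.5 and 95.01 with TGF-β. Both lines showed a fall without overlap, log2 -0.25 (SE 0.047, adjusted p = 2.95e-05) and log2 -0.26 (SE 0.047, adjusted p = 2.13e-05). LIG1, the ligase that seals these pieces, was not called in any comparison, with log2 -0.08 (adjusted p = 0.212) and log2 -0.03 (adjusted p = 0.686) for TGF-β. Without Co.vec TGF-β replicate 3, LIG1 was called lower with TGF-β in Co.vec cells (0.0312) and higher with LETS1 and TGF-β (0.0164). Of the RPA complex, which coats single-stranded DNA, RPA1 and RPA2 fell and RPA3 did not pass the test. RPA1, the large subunit, read 144, 145 and 149 CPM in Co.vec buffer and 116, 123 and 125 in Co.vec TGF-β libraries. In LETS1 cells RPA1 read 148, 137 and 151 in buffer and 113, 119 and 116 with TGF-β. Its groups were apart and it fell, with log2 fold changes of -0.27 (SE 0.046, adjusted p = 7.94e-06) and -0.32 (SE 0.046, adjusted p = 2.62e-07). RPA2, the middle subunit, read 48.1, 49.1 and 47.9 CPM in Co.vec buffer and 37.4, 36.1 and 37.3 in Co.vec TGF-β libraries. The LETS1 levels of RPA2 were 48.3, 49.4 and 50.9 in buffer and 39.6, 39.9 and 41.2 with TGF-β. It fell without overlap as well, with log2 fold changes of -0.39 (SE 0.054, adjusted p = 1.8e-07) and -0.30 (SE 0.054, adjusted p = 1.66e-05). RPA3, the small subunit, had log2 -0.14 (adjusted p = 0.0610) and log2 -0.12 (adjusted p = 0.108), with every TGF-β library below every buffer library of its line, and was called in Co.vec cells only without Co.vec TGF-β replicate 2 (0.0442).

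Of the 3 genes of nucleotide supply, which make the building blocks of DNA, 0 were called with TGF-β in either line, and 1, RRM2, was higher with LETS1 under TGF-β. RRM2 (chr2:10120698-10131419, plus strand) read 279, 269 and 271 CPM in Co.vec buffer and 265, 273 and 269.7 in Co.vec TGF-β libraries. With LETS1, RRM2 read 294, 297 and 285 in buffer and 299, 304 and 325 with TGF-β. Its response to the ligand was log2 -0.02 (SE 0.042, adjusted p = 0.735) and log2 0.08 (SE 0.042, adjusted p = 0.121), with overlap in Co.vec cells and none in LETS1 cells. All LETS1 libraries were above the Co.vec libraries at each ligand, at log2 0.10 (SE 0.042, adjusted p = 0.117) in buffer and log2 0.20 (SE 0.042, adjusted p = 0.000543) with TGF-β, and only the second was called. RRM1, the large subunit of ribonucleotide reductase, had log2 0.01 (adjusted p = 0.842) and log2 0.03 (adjusted p = 0.631) for the ligand. TYMS, which makes thymidylate, had log2 -0.19 (adjusted p = 0.112) and log2 -0.04 (adjusted p = 0.755). It was called lower in Co.vec cells only without Co.vec buffer replicate 1 (0.0450) and higher with LETS1 and TGF-β only without LETS1 TGF-β replicate 3 (0.0264), and 46.6% of its exonic bases are shared with TYMSOS and ENOSF1.

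CHAF1A, the large subunit of the assembly factor that places histones on new DNA, read 42.1, 44.0 and 42.9 CPM in Co.vec buffer and 30.9, 31.2 and 32.4 in Co.vec TGF-β libraries. With LETS1, CHAF1A read 45.5, 45.9 and 47.0 in buffer and 33.3, 34.3 and 33.8 with TGF-β. It fell without overlap and by like amounts, log2 -0.45 (SE 0.056, adjusted p = 2.04e-08) and log2 -0.45 (SE 0.055, adjusted p = 1.36e-08). CLSPN, the fork protein that passes the checkpoint signal to CHK1, fell, at log2 -0.25 (adjusted p = 0.00419) in Co.vec cells, with overlap, and at log2 -0.20 (adjusted p = 0.0248) in LETS1 cells. The call in LETS1 cells was lost without LETS1 buffer replicate 1 (0.0720), LETS1 buffer replicate 2 (0.09999) or LETS1 TGF-β replicate 1 (0.178) and without a filter on low counts (0.0823) or with DESeq2 (0.0926).

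Per kilobase of exon, PCNA was the most abundant member in Co.vec buffer, at a level of 282 CPM per kb, ahead of MCM7 at 62.8, RRM2 at 51.3 and FEN1 at 43.2. POLA2 was the lowest, at 0.966 CPM per kb, and shares 35.1% of its exonic bases with AP000944.2 on the same strand. Exonic bases are also shared with other genes in MCM2 (23.6%), GINS4 (23.6%), PRIM1 (21.6%) and RRM2 (20.2%), so reads there may have been left unassigned as ambiguous. Pseudogenes named after PCNA, RPA2, RRM2, RPA3, TYMS, ORC1, RFC3, RFC5 and FEN1 are annotated. Reads without a unique alignment had a row of their own among those given to no gene, at 1.99% to 2.29% of each library. How many of them came from these genes is not known.

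Of 45 other replication factors tested, 25 fell and 2 rose with TGF-β in Co.vec cells, and 23 fell and 3 rose in LETS1 cells. With LETS1, 3 were higher and 1 lower in buffer, and 4 higher and 0 lower with TGF-β. Of all genes tested 18.6% fell and 21.1% rose with TGF-β in Co.vec cells, and 19.1% fell and 19.7% rose in LETS1 cells. The all-gene shares with LETS1 were 8.57% higher and 6.56% lower in buffer, and 7.58% and 6.5% with TGF-β. WDHD1, which ties polymerase alpha to the helicase, fell from 49.0 ± 1.38 to 31.6 ± 1.42 CPM in Co.vec cells (mean ± SD, n = 3), at log2 -0.63 (adjusted p = 1.44e-11) against log2 -0.61 (adjusted p = 2.93e-11) in LETS1 cells. The helicase RECQL4 fell, with log2 fold changes of -0.49 (adjusted p = 3.2e-09) and -0.43 (adjusted p = 4.83e-08). DSCC1 and CHTF18, of the alternative clamp loader, fell, with log2 fold changes of -0.63 and -0.40, and at log2 -0.43 and log2 -0.46. GMNN, the inhibitor of CDT1, fell, with log2 fold changes of -0.39 and -0.37, and ORC3 at log2 -0.37 and log2 -0.28.

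Among 32 regulators of entry into S phase tested, 9 rose and 10 fell with TGF-β in Co.vec cells, and 8 rose and 10 fell in LETS1 cells. Of all genes tested 21.1% rose and 18.6% fell in Co.vec cells, and 19.7% rose and 19.1% fell in LETS1 cells. CDKN1A, the inhibitor p21, rose from 212 ± 5.43 to 401 ± 26 CPM in Co.vec cells (mean ± SD, n = 3), at log2 0.92 (adjusted p = 1.3e-19), and at log2 0.89 (adjusted p = 2.82e-19) in LETS1 cells. CCND1, a D-type cyclin, rose, with log2 fold changes of 0.60 and 0.69. E2F2, an activator of replication genes, fell from 23.98 ± 1.98 to 11.3 ± 0.413 CPM in Co.vec cells, at log2 -1.09 (adjusted p = 9.29e-15), and at log2 -1.14 (adjusted p = 1.46e-15) in LETS1 cells, while E2F3 rose, with log2 fold changes of 0.49 and 0.40. E2F7, a repressor of E2F targets, rose, with log2 fold changes of 0.36 and 0.58, and CDKN2C, an inhibitor of CDK4 and CDK6, fell, with log2 fold changes of -0.68 and -0.55. With LETS1, 10 were higher and 4 lower in buffer, and 10 higher and 1 lower with TGF-β. Of all genes tested 8.57% were higher and 6.56% lower in buffer, and 7.58% higher and 6.5% lower with TGF-β. CDKN1A was among the regulators higher with LETS1, at log2 0.23 (adjusted p = 0.000319) in buffer and log2 0.20 (adjusted p = 0.00148) with TGF-β. Another inhibitor, CDKN1B, was lower, at log2 -0.23 (adjusted p = 0.00316) and log2 -0.26 (adjusted p = 0.00164). The kinase CDK6 was higher, at log2 0.36 (adjusted p = 4.53e-06) and log2 0.22 (adjusted p = 0.0060).

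Of 35 mitosis genes, 22 fell, 1 rose and 12 were not called with TGF-β in Co.vec cells, and 23 fell, 1 rose and 11 were not called in LETS1 cells. With LETS1 14 were higher and 21 not called in buffer, and 16 were higher and 19 not called with TGF-β, with 0 lower in either. Of all genes tested 18.6% fell and 21.1% rose with TGF-β in Co.vec cells, and 19.1% fell and 19.7% rose in LETS1 cells. The all-gene shares with LETS1 were 8.57% higher and 6.56% lower in buffer, and 7.58% and 6.5% with TGF-β. KIF20A, a mitotic kinesin, fell, with log2 fold changes of -0.55 (adjusted p = 1.11e-10) and -0.57 (adjusted p = 3.88e-11), and CDC20, the activator of the anaphase-promoting complex, was higher with LETS1 at log2 0.41 (adjusted p = 5.3e-08) and log2 0.43 (adjusted p = 3.56e-08). The interaction called 0 genes in each of these 3 lists, where 0.679% of all genes tested were called.

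Counts in genes ran from 19705135 to 20351043 per library, and the lowest member count in a library was 75. Of 6 markers of simple epithelium, KRT8 was the most abundant, at 5615 ± 212 CPM in Co.vec buffer (mean ± SD, n = 3). With LETS1 in buffer 4 of the 6 were lower, KRT8 at log2 -0.37, KRT18 at log2 -0.55, KRT19 at log2 -0.79 and CLDN4 at log2 -0.48, while EPCAM at log2 0.19 (adjusted p = 0.313) and CDH1 at log2 0.03 (adjusted p = 0.799) were not called. With TGF-β 3 rose and 1 fell in each line. The sum over the 6 was 7961 to 8620 CPM in Co.vec buffer, 6005 to 6333 in LETS1 buffer, 8791 to 9819 in Co.vec TGF-β and 7433 to 7785 in LETS1 TGF-β libraries. Markers of endothelial and immune cells were scarce, with summed levels of at most 0.618 CPM for 4 endothelial genes and of 1.28 to 2.73 CPM for 5 immune genes. The sum over 6 fibroblast markers rose with TGF-β, from 13.79 to 13.98 CPM in Co.vec buffer to between 122 and 130 in Co.vec TGF-β libraries, and from 19.0 to 23.1 to between 134 and 151 in LETS1 cells. Most of it was COL1A1, and 4 of the 6 had too few counts to test. Mitochondrial genes took 11.6% to 12.5% of gene counts in Co.vec buffer and 10.8% to 11.5% in Co.vec TGF-β libraries, and unaligned reads 3.25% to 3.40% and 3.83% to 4.27%. In LETS1 cells the mitochondrial share was 11.92% to 12.86% in buffer and 11.23% to 11.90% with TGF-β. Unaligned reads there were 2.93% to 3.80% and 3.82% to 4.00%. The part of these marker levels and shares in the results was not tested.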

How the data were processed

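RNA of 12 A549 libraries was counted per gene by the authors, and the deposited values are raw counts in 60676 gene rows and 5 rows of reads given to no gene. Per the submitters' processing notes, cutadapt 2.10, STAR 2.7.5a, HTSeq 0.12.4 and FastQC were used with GRCh38. No source used here states the strand setting or the annotation release. Counts in genes made up 80.0% to 81.1% of each library, reads in no gene 2.81% to 3.53% and ambiguous ones 10.1% to 10.9%, and only gene rows entered library sizes. The authors' gene IDs were matched to symbols for 60357 rows, and positions and exonic lengths came from GENCODE release 29.

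Counts were filtered with filterByExpr, scaled by TMM and fitted with edgeR 4.0.16 in R 4.3.3 (robust quasi-likelihood, 1 mean per group, 12 libraries). The 16192 genes tested were adjusted together by Benjamini-Hochberg in each of 5 contrasts and called at 0.05. The scripts were tested on simulated data. Alternatives were RLE scaling, no filter, a replicate block, each library left out, the 6 libraries compared fitted alone and DESeq2 1.42.0. The members and gene lists were chosen with earlier results of these data known. Values in every library are given for the 24 members with the smallest adjusted p in any contrast, and of each other list up to 6 called genes are named. CDKN1A and CDC20 with LETS1 fall under that rule. CDKN1B, CDK6 and the genes under other observations were added after their values were seen. Epithelial markers are named from a list of 6. Promoters came from RefSeq on GRCh38.p14, the first listed window per gene, where 6 members had several.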

Additional observations from a re-analysis of the deposited data

How the results depend on the processing

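The number of members called stayed within 1.5 times of the reported one under every alternative run. Leaving out each library in turn gave 5 to 7 members for LETS1 in buffer, 7 to 13 for LETS1 with TGF-β, 27 to 34 for TGF-β in Co.vec cells, 22 to 30 for TGF-β in LETS1 cells and 0 for the interaction. DESeq2 called 6, 9, 30, 24 and 0 in these comparisons, no filter on low counts 6, 9, 31, 23 and 0, and RLE scaling 6, 10, 32, 30 and 0. The 6 libraries compared, fitted alone, gave 6, 9, 32 and 30. With a replicate block the counts were 6, 9, 32, 30 and 0, and the block ended 1 call, that of GINS1 with LETS1 and TGF-β (adjusted p = 0.0594). The numbers are not known to pair libraries: 0 of 18 same-numbered pairs had a correlation of deviations over 0.1 (-0.0573 to 0.0472), and 5 of 12 libraries correlated best with their own number. Of 3360 single-gene values under alternatives, 3269 kept their direction and side of the threshold or were uncalled in both, 79 lost the call, 12 gained one and 0 reversed, and in 105 the sign differed while the gene was called in neither. The cause of these losses was not tested. The lowest count of a member in a library was 75, in POLA2, and what depth contributed to any call was not tested.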

Other observations

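Some genes of the comparison lists had few counts where much of the gene is shared with a neighbour, and others did not. CDK4 stood at a mean of 70.4 CPM in Co.vec buffer and shares 43.2% of its exonic bases with TSPAN31 on the opposite strand. RNASEH2C stood at 16.7 CPM there and shares 28.2% with KAT5, also on the opposite strand. RNASEH2A, a subunit of the enzyme that removes RNA from DNA, stood at a mean of 0.364 CPM in Co.vec buffer and shares 30.8% of its exonic bases with THSD8 on the same strand. PRC1, a protein of the central spindle, stood at 0.414 CPM and shares 58.4% with AC068831.7 and PRC1-AS1. NUSAP1, a spindle protein, stood at 0.513 CPM and shares 62.2% with AC087721.2. Reads that fit several genes were left unassigned at 10.1% to 10.9% of each library, and the part of this in the 3 low levels was not tested. All the genes named here were singled out after their values were seen.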
